A study of Mus musculus with 3 samples.

Results

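The genes described here build the late cornified envelope and mark the granular layer, the outermost living layer of the epidermis. They were taken as the probe sets whose platform annotation gave exactly 1 symbol that either began with Lce and a digit or was among 30 named envelope and granular genes. Each gene was read by its brightest probe set over 3 arrays. This gave 31 genes of the 18193 that the array pairs with single symbols. Of the 31, 15 were late cornified envelope (Lce) genes, among them Lce1d, which the symbol rule added to the 30 names. Averaged over the 3 arrays, 28 of the 31 reached a log2 value of 5, namely 12 Lce genes and all 16 others, and these were tested. The 3 dimmer genes, Lce3a, Lce3c and Lce3f, are described apart.

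Total RNA came from dorsal skin of 4-day-old female BALB/cA mice, with 1 array per sample. The wild type group was 1 uncv +/+ mouse, and the uncv null group was 2 uncv -/- sisters of it, all born to uncv +/- parents. The uncv (uncovered) allele arose spontaneously and leaves mice nearly hairless; it was later traced to Rhbdf2, the gene of the inactive rhomboid iRhom2. The design asks which skin transcripts differ without normal uncv function, and no group received a treatment.

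In the granular layer keratinocytes fill with keratohyalin and lamellar granules and replace their plasma membrane with the cornified envelope. Envoplakin, periplakin and involucrin form the first scaffold under the membrane. Loricrin, small proline-rich proteins and, last, the LCE proteins are then cross-linked onto it by transglutaminases. Lor, Ivl, Crct1 and the Lce genes lie together in the epidermal differentiation complex of chromosome 3, and Klf4, Grhl3, Grhl1 and Prdm1 encode transcription factors of this last step.

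Promoter sequence was read because many of these genes lie in 1 cluster, and because the AP-1, grainyhead and Krüppel-like factors are known regulators of these genes. RefSeq windows of GRCm38.p6, from 250 bases before to 50 after the start, were found for 27 of the 31 genes. Each motif was searched on both strands, and positions are those of its first base relative to the start. The AP-1 element TGANTCA was held by 6 of the 27 genes, against 8.97% of all 27025 genes with a window. These were Ivl, Lor, Krtdap, Sbsn, Dmkn and Prdm1, so that 6 of 13 genes outside the Lce family and 0 of 14 Lce genes held it. It stood at -116 in Ivl, -48 in Lor and -81 in Krtdap, and Sbsn had it at both -119 and -6. TATAAA was found in Ivl, Lor, Krtdap, Lce1d and Lce1m, where it began between -30 and -27, and in 15.7% of all genes. CACCC, the core of boxes read by Krüppel-like factors, was in 15 of 27 genes against 59.8% of all, and AACCGGTT, the grainyhead element, in 0 of 27 against 0.174%. The last 150 bases before the start are shown for 3 genes that held both of the first-named motifs, with TGANTCA and TATAAA in capitals; Lor and Ivl lie on the minus strand at chr3:92083143-92083292 and chr3:92573736-92573885, and Krtdap on the plus strand at chr7:30787755-30787904.
Lor: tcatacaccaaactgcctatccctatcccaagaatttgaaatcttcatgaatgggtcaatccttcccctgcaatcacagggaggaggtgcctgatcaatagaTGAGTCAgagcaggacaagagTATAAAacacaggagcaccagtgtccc
Ivl: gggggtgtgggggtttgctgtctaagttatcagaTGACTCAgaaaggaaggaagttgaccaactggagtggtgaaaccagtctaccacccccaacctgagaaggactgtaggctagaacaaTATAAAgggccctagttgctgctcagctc
Krtdap: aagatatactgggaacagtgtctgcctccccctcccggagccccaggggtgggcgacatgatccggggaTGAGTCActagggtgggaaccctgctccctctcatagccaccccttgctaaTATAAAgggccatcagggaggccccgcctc

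Within the Lce1 subfamily 8 of the 10 promoter windows were alike. Global alignment gave 63.3% to 86.0% identity over the 28 pairs of these 8. The 17 pairs that include Lce1l or Lce1m lay at 51.0% to 55.2%, which overlaps the 41.5% to 54.6% of 78 pairs of genes outside the Lce family. The closest were Lce1g and Lce1i at 86.0%, Lce1g and Lce1h at 84.6%, and Lce1h and Lce1i at 81.0%. Their last 100 bases before the start are shown on the minus strand, from chr3:92752339-92752438, chr3:92765066-92765165 and chr3:92778900-92778999, with capitals where the aligned base differs from that of Lce1g.
Lce1g: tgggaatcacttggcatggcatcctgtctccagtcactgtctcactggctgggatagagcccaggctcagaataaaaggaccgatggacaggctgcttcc
Lce1h: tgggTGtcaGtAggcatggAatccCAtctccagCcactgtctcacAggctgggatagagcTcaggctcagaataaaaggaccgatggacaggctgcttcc
Lce1i: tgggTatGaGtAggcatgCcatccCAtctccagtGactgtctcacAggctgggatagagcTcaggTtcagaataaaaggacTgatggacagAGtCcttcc
Capitals mark 10 bases in Lce1h and 15 in Lce1i. The probe sets of these genes gave 6.03 in wild type for Lce1g, 11.06 for Lce1h and 11.60 for Lce1i, but probe sets differ in how brightly they bind, so these values do not rank the genes.

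The arrays differed in quality measures. The mean of the 18S ribosomal RNA control probe sets was 3.59 in the wild type array, 7.93 in uncv null 1 and 4.26 in the other null array, and the 3' minus 5' difference of the Actb control was 0.66, 1.23 and 0.79 in the same order. The spike-in mean was 8.01, 8.71 and 8.44. Rhbdf2 itself read 5.83, 6.29 and 6.49, which does not check the genotype, since the place of its probe set relative to the mutation was not examined. The part of these measures in the differences below was not tested. In whole skin, fewer cells of a type and less RNA per cell cannot be told apart.

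Of the 28 tested genes, both uncv null arrays lay above wild type for 18 and below it for 0, while 10 were split between the arrays. Over all 8456 tested genes, 38.8% were higher in both arrays and 26.4% lower in both. The median difference from wild type was 0.14 for uncv null 1, 0.19 for uncv null 2 and 0.16 for their mean, beside 0.036 over all tested genes. After quantile normalization 21 of the 28 were higher in both arrays and 0 lower, beside 36.7% and 27.5% of all genes. After median centring 17 were higher and 2 lower, beside 34.8% and 28.7% of all genes. By limma 0 of the 28 passed the adjusted threshold (adjusted p = 0.9996 at the smallest, and 0% of all genes passed), and 0 had an unadjusted p under 0.05, beside 2.9% of all genes.

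The sizes of the differences were like those of all tested genes. The mean differences ran from -0.22 for Lce3b to 0.61 for Grhl3, and 16 of the 28 were under 0.2 in size, as were 55.9% of all tested genes. The median size without regard to sign was 0.17 for both the members and all tested genes. By size alone, in 0 of the 28 did both null arrays lie at least 2-fold from wild type on the same side, where 0.225% of all genes were higher and 0.296% lower. At 1.5-fold the count was again 0, beside 1.49% higher and 1.35% lower. limma's 95% intervals of the difference reached 0.63 to 0.83 log2 units to either side and included 0 for all 28 genes. They included a 2-fold higher level for 7 genes and a 2-fold lower level for 0. limma called 0 of all tested genes, whose mean differences ran from -2.50 to 4.10, so the 0 calls among the members do not bound the size of a difference. The gap between the uncv null arrays exceeded the mean difference for 19 of the 28. The share of all tested genes was not counted, but their median gap of 0.22 also exceeded their median size of 0.17. For the members the median gap was 0.19. Both arrays stood above wild type by more than the gap between them for 7 genes (Lce1h, Lce1i, Lce1l, Evpl, Ivl, Cdsn and Grhl1), which compares with 19.2% of all genes.

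**Figure D1:**
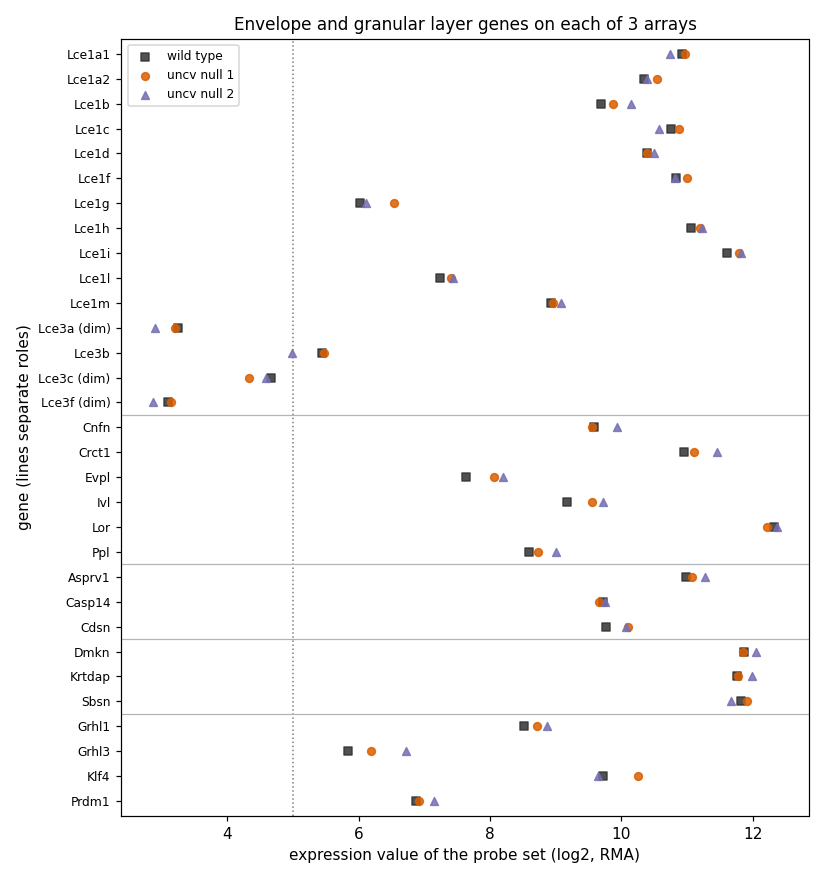
Log2 RMA value (x axis) of each of the 31 genes (y axis, grouped by role) in wild type (squares), uncv null 1 (circles) and uncv null 2 (triangles), 1 array per symbol; the dotted line marks the minimum mean of 5. The 3 symbols of a gene lie close together beside the range between genes, and Lce3a, Lce3c and Lce3f lie left of the line.

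Lce genes encode small cysteine- and glycine-rich proteins added late to the envelope. Of the 12 tested, 8 stood above wild type in both null arrays, 0 below it in both and 4 were split, with medians of 0.15 for uncv null 1 and 0.09 for uncv null 2. The smallest gaps between the null arrays were those of Lce1h and Lce1i. With arrays always given in the order wild type, uncv null 1, uncv null 2, Lce1i read 11.60, 11.79 and 11.83, a difference of 0.21 ± 0.26 (limma's moderated SE, 1 against 2 arrays). Lce1h read 11.06, 11.20 and 11.23. In both genes the uncv null arrays lay together just above wild type, as they did in Lce1l at 7.25, 7.41 and 7.44.

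Lce1b stood farthest above wild type in the family, at 9.69, 9.88 and 10.15, a difference of 0.33 ± 0.28. Lce1g read 6.03, 6.55 and 6.11, so that uncv null 1 alone stood apart and uncv null 2 lay next to wild type. Lce1a1 read 10.92, 10.97 and 10.74, and Lce1c 10.76, 10.88 and 10.58. Both of these lay slightly above wild type in uncv null 1 and below it in uncv null 2, as did Lce1f and Lce3b. Differences for Lce1a2, Lce1d and Lce1m were 0.12, 0.054 and 0.10. Against uncv null 1, uncv null 2 was higher in 6 of the 12 Lce genes, in 13 of the 16 other members and in 55.6% of all tested genes; the difference between these shares was not tested.

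The Lce3 genes, a subfamily known to be induced in injured skin, gave dim signals in all 3 mice. Lce3a read 3.25, 3.21 and 2.90, and Lce3f read 3.10, 3.14 and 2.87. These values lie below the 3.65, 3.48 and 3.50 of the brightest probe set for the Y-linked genes Kdm5d, Eif2s3y and Uty on arrays of female mice, so neither gene was shown above background. Lce3c read 4.67, 4.34 and 4.60, just outside the limit of 5 with a mean of 4.54. Lce3b was just inside it with a mean of 5.30 and read 5.45, 5.47 and 4.99. In 0 of these 4 genes were both uncv null arrays above wild type, beside 38.8% of all tested genes. Only Lce3b was bright enough to be tested, and Lce3a and Lce3f were not shown above background. The count therefore does not show whether the subfamily changed.

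Sequence likeness limits single Lce readings. Of the 15 Lce probe sets, 5 carried names ending in _x_at and 1 in _s_at, which the array maker uses for probes that may match related transcripts, so Lce1d, Lce1h, Lce1i, Lce1m, Lce3b and Lce3c may include signal from relatives. A further 6 Lce genes named by RefSeq, Lce1e, Lce1j, Lce1k, Lce3d, Lce3e and Lce6a, had no probe set paired with their symbol alone. A second probe set for Lce1a1 read 10.87, 10.84 and 10.74, and one for Lce1f read 7.40, 7.46 and 7.57.

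Of the 6 scaffold and cross-linked protein genes, both null arrays lay above wild type for 4 and were split for Cnfn and Lor, and 0 passed the adjusted threshold by limma. Evpl, which encodes the plakin envoplakin, read 7.63, 8.06 and 8.20. Its difference was 0.50 ± 0.26, or 1.41-fold, with an interval from -0.15 to 1.14. Ivl, which encodes involucrin, the first soluble precursor to be cross-linked, read 9.18, 9.55 and 9.73, a difference of 0.46 ± 0.26 (1.38-fold, interval from -0.19 to 1.11). In both genes the uncv null arrays lay closer to each other than to wild type. A second, dimmer Ivl probe set read 7.11, 6.84 and 7.78 and did not keep uncv null 1 above wild type.

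Ppl, which encodes the envoplakin partner periplakin, read 8.60, 8.73 and 9.0, a difference of 0.26 ± 0.27. Crct1, a cysteine-rich protein gene beside the Lce cluster, read 10.95, 11.11 and 11.46, a difference of 0.33 ± 0.29. In both, the second null array stood the farther above wild type. Cnfn, which encodes the envelope protein cornifelin, read 9.58, 9.55 and 9.93, so uncv null 1 was level with wild type. Lor, whose glycine-rich product is the main mass of the envelope, read 12.33, 12.21 and 12.38, a difference of -0.034 ± 0.26 with an interval from -0.68 to 0.62. A second bright Lor probe set read 11.40, 11.44 and 11.40.

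Genes of granular adhesion and proteolysis lay at or slightly above wild type. Cdsn, which encodes corneodesmosin, the glycoprotein that holds corneocytes together, read 9.76, 10.11 and 10.07. Its difference of 0.33 ± 0.26 was nearly equal in both uncv null arrays, at 0.35 and 0.31. Asprv1, the retroviral-like protease that processes profilaggrin, read 10.99, 11.08 and 11.27. Casp14, the caspase of cornifying keratinocytes, read 9.72, 9.67 and 9.75, a difference of -0.013 ± 0.26 and the smallest in size of the 28. A second, dimmer Casp14 probe set read 5.60, 5.87 and 5.23, above wild type in uncv null 1 and below it in uncv null 2.

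Krtdap, Sbsn and Dmkn encode secreted suprabasal proteins and are carried on chromosome 7. Their promoter windows all held the AP-1 element, as Lor and Ivl did. Krtdap read 11.76, 11.78 and 11.99, Dmkn 11.86, 11.86 and 12.04, and Sbsn 11.83, 11.92 and 11.67. These 3 differed from wild type by 0.13, 0.088 and -0.033, and Sbsn was the exception in which uncv null 2 was the lowest array. Other Sbsn probe sets read 11.58, 11.81 and 11.90, and 10.05, 9.97 and 10.44, and stood above wild type by 0.28 and 0.16, so the sign for Sbsn depends on the probe set. Genes with the element thus included both Ivl, at 0.46, and Lor, at -0.034.

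**Figure D2:**
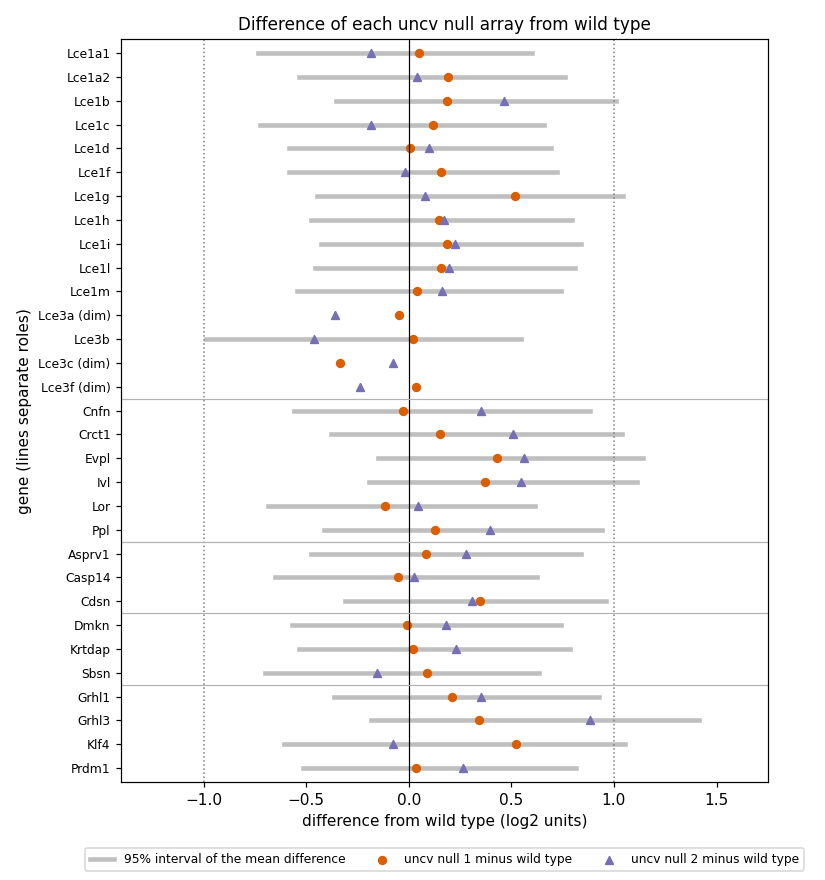
Difference from wild type in log2 units (x axis) of uncv null 1 (circles) and uncv null 2 (triangles) for the 31 genes (y axis, grouped by role); grey bars are limma's 95% intervals of the mean difference for the 28 tested genes and dotted lines mark 2-fold. Every grey bar crosses 0, and most symbols lie right of it, with Grhl3, Evpl and Ivl farthest.

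The largest difference among the members was that of a transcription factor. Grhl3, a grainyhead-like factor required for the skin barrier, read 5.84, 6.18 and 6.73. That is a difference of 0.61 ± 0.32, or 1.53-fold, with an interval from -0.18 to 1.41 (limma unadjusted p = 0.108, adjusted p = 0.9996). The gap of 0.54 between the uncv null arrays was nearly as large. Grhl1, a grainyhead-like factor of desmosomal genes, read 8.51, 8.72 and 8.86, a difference of 0.28 ± 0.26, with the uncv null arrays close to each other. Prdm1, which encodes Blimp1, read 6.88, 6.91 and 7.14. Klf4, a Krüppel-like barrier factor, read 9.72, 10.25 and 9.65, and its uncv null 1 value stood apart from the other arrays. The other Klf4 probe set read 8.82, 9.23 and 8.96 and was again highest in uncv null 1, the array with the highest 18S and Actb 3' to 5' measures; the part of RNA quality was not tested.

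The wider cornification list, with transglutaminase, lipid, protease and proline-rich protein genes, had a median difference of 0.29, beside 0.16 for the members. Of its 46 names 37 were measured. Among these, 26 stood above wild type in both null arrays and 1 below it in both, beside 38.8% and 26.4% of all tested genes. By limma 0 of them passed the adjusted threshold and 6 had an unadjusted p under 0.05. Its largest differences were those of Sprr1b at 1.24 ± 0.43, which encodes a cross-linked envelope precursor, and Padi1 at 0.92 ± 0.27, which converts arginine to citrulline. Cst6, a cysteine protease inhibitor of the envelope, stood at 0.91 ± 0.34 and Sprr2d at 0.87 ± 0.27. Padi1 read 4.76, 5.56 and 5.81, and Sprr2d 4.79, 5.55 and 5.79. Both were under 5 in wild type and reached the minimum mean only through the uncv null arrays. Flg, the filaggrin gene of keratohyalin granules, was the 1 gene lower in both arrays, at 10.67, 10.57 and 10.41.

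Of 26 other listed regulators of epidermal differentiation 23 were measured, with a median of 0.29. Hopx among them is also on the cornification list. Both null arrays lay above wild type for 16 of the 23 and below it for 2, beside 38.8% and 26.4% of all tested genes. By limma 0 passed the adjusted threshold and 1 had an unadjusted p under 0.05. Vdr, the vitamin D receptor, was at 0.82 ± 0.27, Zfp750, a p63 target that promotes terminal differentiation, at 0.67 ± 0.29, Gata3 at 0.62 ± 0.26 and the nuclear receptor Ppard at 0.59 ± 0.26. Grhl3 thus lay within the range of these regulators. Ppard read 4.94, 5.59 and 5.46, so it reached the minimum mean of 5 only through the uncv null arrays.

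The members were set beside the other genes of the epidermal differentiation complex, of which 0 passed limma's adjusted threshold. RefSeq lists 70 protein-coding genes from S100a1 to S100a10, of which 36 were tested, 15 of them members. The 12 Lce genes tested had a median of 0.11 and the largest single-array difference among them was 0.52, for Lce1g. The 21 tested genes of the complex that are not members had a median of 0.28. Of these, 13 were higher and 3 lower in both arrays, beside 38.8% and 26.4% of all tested genes. At least 1.5-fold higher in both were 6, beside 1.49% of all tested genes. Sprr1a, Sprr1b, Sprr2d, Sprr2h, Flg and Hrnr are also on the wider cornification list, so both medians rest partly on the same genes. S100a9 and S100a8, the calprotectin subunits, had mean differences of 2.41 ± 0.69 and 1.97 ± 0.64, Tchhl1, a trichohyalin-like gene, of 1.79 ± 0.39 and Sprr1b of 1.24 ± 0.43. For each the difference was larger in uncv null 2, at 3.30 for S100a9, 2.78 for S100a8, 2.19 for Tchhl1 and 1.72 for Sprr1b. In uncv null 1 it was 1.52, 1.15, 1.38 and 0.76 in the same order. S100a9, S100a8 and Tchhl1 thus passed 2-fold in both arrays, where 0.225% of all tested genes were 2-fold higher. S100a9 read 4.81, 6.33 and 8.11, so it reached the minimum mean of 5 only through the uncv null arrays. S100a8 and S100a9 precede Lor in RefSeq order, and the tested Sprr genes lie between Lor and Ivl, at 0.53 to 1.24. Ivl thus stood at 0.46 between the Sprr genes and the Lce cluster, and Lor at -0.034 beside Prr9 at 0.44. The difference between these stretches was not tested.

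**Figure D3:**
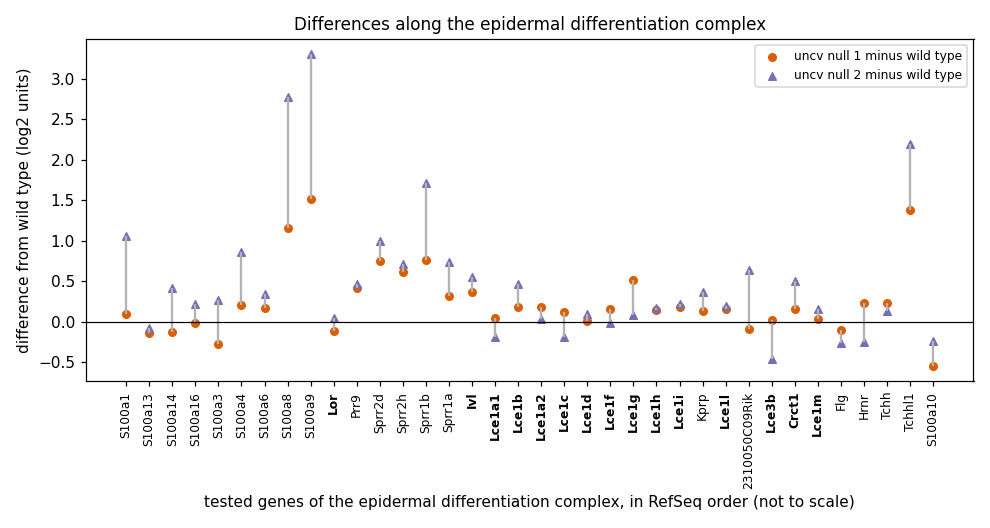
Difference from wild type in log2 units (y axis) of uncv null 1 (circles) and uncv null 2 (triangles) for the 36 tested genes of the epidermal differentiation complex in RefSeq order (x axis, not to scale; members in bold). The bold Lce names lie near 0, while S100a8, S100a9, Sprr1b and Tchhl1 stand above 1 in mean.

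The labelled tissue held its defining epidermal markers on all arrays. The suprabasal keratin Krt10 read 12.81, 12.73 and 12.86, and its partner Krt1 12.56, 12.44 and 12.74. Krt5, the basal keratin, read 11.39, 11.34 and 11.55. Of 7 spinous markers 3 stood above and 0 below wild type in both null arrays (median 0.09), and of 10 basal markers 8 were higher and 1 lower (median 0.37). Over all tested genes 38.8% were higher and 26.4% lower in both. Trp63 of the basal list is also among the regulators. Dsg1a, Dsc1, Dsp and Pkp1 of the spinous list are also on the wider cornification list. Mean log2 levels of the basal list were 8.40, 8.65 and 8.90 and those of the spinous list 10.16, 10.35 and 10.31.

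Markers of other skin cells were read beside these genes. The counts below stand beside 38.8% of all tested genes higher and 26.4% lower in both null arrays. Gata3 of the hair markers is also among the regulators, and Tchh is in the complex. Of 8 dermal fibroblast markers, both null arrays lay above wild type for 0 and below it for 6, with mean log2 levels of 10.70, 10.65 and 10.26. Of 10 skeletal muscle markers 1 was higher and 8 lower, with means of 9.93, 9.25 and 8.64, and all 7 measured white adipocyte markers were higher, with means of 8.06, 8.58 and 9.15. Of 12 hair shaft and inner root sheath markers 7 were higher and 0 lower in both (means 9.20, 9.19 and 9.50). For 5 endothelial markers the counts were 0 and 2 (means 5.66, 5.38 and 5.33), and for 7 macrophage markers 5 and 0 (means 6.68, 6.77 and 7.04). By limma 0 markers of these lists passed the adjusted threshold. The fibroblast, muscle and adipocyte means each lay farther from wild type in uncv null 2, and the part of cell makeup in the members' tilt was not tested.

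Most members gave bright signals. A mean of at least 9 was reached by 19 of the 28, a level that 90.3% of tested genes lie below, and 8 had a mean of at least 11. Among the 19 bright members, both null arrays lay above wild type for 10 and below it for 0, with a median of 0.13. Over all 817 tested genes as bright, 37.2% were higher and 30.8% lower in both arrays, the median was 0.0067, and 63.5% differed by under 0.2 in size.

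**Figure D4:**
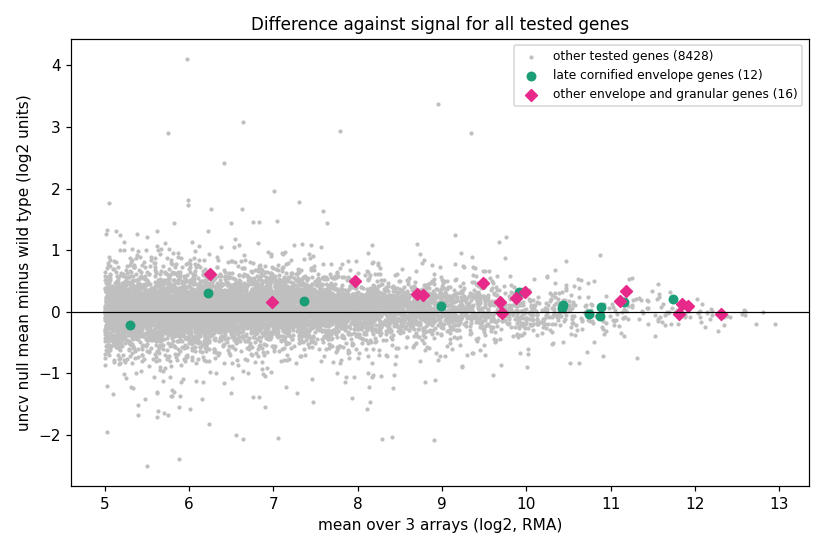
Mean difference of uncv null from wild type in log2 units (y axis) against the mean log2 value over 3 arrays (x axis) for 12 tested Lce genes (green circles), the 16 other members (pink diamonds) and 8428 other tested genes (grey points). The coloured symbols lie inside the grey cloud, mostly at the bright end and slightly above 0.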

How the data were processed

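Gene expression was measured in 3 dorsal skin samples with 1-colour arrays, 1 wild type and 2 uncv null. The deposited log2 values are RMA expression values per the submitters' processing notes; RMA corrects background, normalizes arrays to a common distribution and summarises probe sets, so a shift of all transcripts together cannot be seen. Which program ran RMA, in which version and with which background model, is not given in the sources used here. The table held 45101 probe sets; control probe sets were read only as quality measures. The number of arrays limits the precision.

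Groups and the numbers of the uncv null arrays came from the sample titles. limma 3.58.1 in R 4.3.3 (lmFit, eBayes, Benjamini-Hochberg, threshold 0.05) was fitted to the 13559 probe sets with a mean of at least 5, with 1 residual and 4.75 prior degrees of freedom; this takes the spread of the uncv null arrays for the wild type array as well. P-values therefore rest on the gap between the 2 uncv null arrays and, for the larger part, on a prior spread pooled over all fitted probe sets. They hold no spread between wild type mice. Nothing beyond the design text says that the samples came from separate mice. Genes are counted by their brightest probe set. Members, lists, motifs and the 2-fold rule were chosen with earlier results of these data known. Named genes were all members and, in the other lists of cornification genes, regulators and complex genes, the 4 with the largest mean difference; Flg, Prr9 and the keratins were named after their values were seen. All 31 members matched the RefSeq gene table by Entrez identifier. The array's genome build is not given in the sources used here, so no coordinates are given for probe sets. Alternatives were other filters, scalings, probe set rules, variance models and size thresholds, and leaving out each uncv null array. Promoter windows were aligned with Biopython 1.88 (match 1, mismatch -1, gap opening -2, gap extension -0.5).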

Additional observations from a re-analysis of the deposited data

Results flagged for a closer look

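A dim Lor probe set, outside the comparisons above, read 5.65 in uncv null 1, against 3.35 in wild type and 3.33 in uncv null 2. It was singled out because a probe set not used elsewhere stood more than 2-fold above wild type in 1 uncv null array. The brightest Lor probe set read 12.3 in wild type and 12.2 in uncv null 1. On the same array the 18S ribosomal RNA control probe sets read 7.93, against 3.59 in wild type and 4.26 in uncv null 2, and whether this bears on the Lor probe set was not tested.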

How the results depend on the processing

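limma called 0 of the members under no filter, a minimum mean of 7, the mean of probe sets, quantile normalization, median centring, an intensity trend and robust variance, and 0 lay 2-fold from wild type in any of these that bear on size or with 1 uncv null array left out. The count higher in both arrays was 18 of 31 with no filter, 17 of 28 with median centring and 15 of 24 with a minimum mean of 7. It was 21 of 28 with quantile normalization and with the mean of probe sets. The count lower in both arrays, 0 in the report, was 2 with no filter, where Lce3a and Lce3c enter, and 2 with median centring. With 1 uncv null array left out, 22 and 24 were higher and 4 to 6 lower in the remaining array; the median of all members was then 0.14 to 0.19 and that of the Lce genes 0.090 to 0.15. Sbsn turned to 0.13 with the mean of probe sets and Lor to 0.042 with quantile normalization. Leaving out 1 uncv null array turned the sign of 10 genes, whose values ran from -0.053 to 0.028 for Casp14, -0.076 to 0.52 for Klf4, -0.017 to 0.16 for Lce1f, -0.11 to 0.047 for Lor, -0.029 to 0.35 for Cnfn, -0.0068 to 0.18 for Dmkn, -0.18 to 0.048 for Lce1a1, -0.18 to 0.12 for Lce1c, -0.46 to 0.021 for Lce3b and -0.15 to 0.088 for Sbsn. These are the same 10 genes that were split between the arrays, since leaving out 1 array leaves the value of the other. The turned signs are therefore no separate result. With 1 uncv null array left out there are no residual degrees of freedom, so no test was run. Wild type has 1 array, so neither leaving it out nor a paired analysis was possible. Quantile normalization and median centring moved the median of all genes by less than 0.1.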
